A study of Mus musculus with 7 samples.

Results

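Cholesterol and fatty acid synthesis was followed through 32 genes in RNA of Tregs, regulatory T cells marked by the transcription factor Foxp3. The genes were chosen by name, as rows of the count table whose symbol matched the list, and they were 32 of 24084 genes. They were divided by role into a sterol arm of 14 enzymes, a fatty acid arm of 13 enzymes and 5 SREBP regulators. Of the 32, 31 passed the low-count filter and were tested, among 11376 genes in all; Fads2 did not pass it. The Tregs were sorted from telogen skin, in which hair follicles rest (4 libraries), or from the skin-draining lymph nodes, SDLN (3 libraries). All mice were 6 weeks old and of the strain Foxp3-DTR, in which the Foxp3 locus also drives the diphtheria toxin receptor and, per the series design, green fluorescent protein, so SDLN and skin carried the same allele and no agent is named for either. The sources used here give neither the sort gate nor how many animals went into a library, so p-values measure the spread between these libraries, which may be in part technical.

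Cells make cholesterol from acetyl-CoA through mevalonate, farnesyl diphosphate, squalene and lanosterol. Fatty acids are made from the same acetyl-CoA by carboxylation and chain building, and are then desaturated, elongated and coupled to coenzyme A. Both branches are transcribed under the SREBP factors, which the sensor Scap escorts out of the endoplasmic reticulum when sterol is low and which Insig proteins hold back when sterol is high. T cells raise this programme on activation, because dividing cells need membrane, and Tregs are known to depend on mevalonate for their suppressive function.

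The libraries held 11009609 to 14785751 gene counts. Genes with at least 1 count numbered 13408 to 13845 in SDLN and 9690 to 12639 in skin. Levels are in CPM, counts scaled to library size, and 3 counts stood for 0.202 to 0.274 CPM. The 8 T cell and Treg markers were detected in all 7 libraries, with a sum of 8826 ± 921 CPM over SDLN (SD, n = 3) and of 11899 ± 2358 CPM over skin (SD, n = 4). Of these, Ctla4 and Ikzf2 rose in skin, while Cd3e, Cd3g and Cd4 had log2 fold changes of -1.07, -0.73 and -0.66 that did not pass (edgeR). Skin 3 stood apart by 6 fibroblast markers that summed to 1984 CPM, against 2.83 to 8.77 CPM in the other skin libraries, and by 8 keratinocyte markers that summed to 723 CPM, against 0.495 to 20.5 CPM. Macrophage and dendritic cell markers (12 genes) summed to 10176 CPM in skin 4, to 739 to 3131 CPM in the other skin libraries and to 340 to 543 CPM in SDLN. Most of each sum was Cd74, at 6998 CPM in skin 4, 484 CPM in skin 3 and 298 to 487 CPM in SDLN. Like Cd74, the markers H2-Aa, H2-Ab1, Lyz2, Mrc1, Adgre1 and Itgax were highest in skin 4. Cd68, Csf1r, C1qa and C1qb were highest in other skin libraries, and Cd207 had no count in any library. Skin 1 is skin by its title and source, but a tissue tag calls it lymph node. SDLN 3 was the only library with the Y-linked Ddx3y above 2 counts (3877 counts) and had 4 counts of Xist, so it came from male tissue and the other libraries from female tissue.

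The promoters shown first belong to members that the results turn on and share a short element. They are those of Hmgcs1, whose level was the steadiest of the sterol arm in skin, Cyp51 and Dhcr7 of the same arm, and Insig1, the regulator with the smallest adjusted p. RefSeq windows of 300 bases on build GRCm38.p6, running from 250 bases before to 50 bases after a start site, were found for 26 of the 32 members. Dhcr7 has 3 windows, and the one shown was picked because it alone of them held the shared element. The E-box of Dhcr7 counted below lies in a window that is not shown. Capitals mark CCAAT, the core bound by the factor NF-Y, or its complement ATTGG, and in Hmgcs1 also the match to TCACNCCAC, a loose form of the sterol regulatory element.
Hmgcs1, chr13:119690101-119690400, plus strand: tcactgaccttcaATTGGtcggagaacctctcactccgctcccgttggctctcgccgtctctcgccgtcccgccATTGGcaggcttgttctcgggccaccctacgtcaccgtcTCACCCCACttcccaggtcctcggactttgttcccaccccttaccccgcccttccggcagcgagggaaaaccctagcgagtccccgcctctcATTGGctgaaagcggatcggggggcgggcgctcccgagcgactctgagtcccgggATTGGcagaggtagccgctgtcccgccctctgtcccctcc
Cyp51, chr5:4104648-4104947, minus strand: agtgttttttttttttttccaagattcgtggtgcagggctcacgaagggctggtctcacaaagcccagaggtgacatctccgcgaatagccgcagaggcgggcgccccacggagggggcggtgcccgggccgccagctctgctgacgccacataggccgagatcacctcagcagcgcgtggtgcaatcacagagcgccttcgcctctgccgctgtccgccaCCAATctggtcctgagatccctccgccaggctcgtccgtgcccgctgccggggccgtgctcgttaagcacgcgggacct
Dhcr7, chr7:143829964-143830263, plus strand: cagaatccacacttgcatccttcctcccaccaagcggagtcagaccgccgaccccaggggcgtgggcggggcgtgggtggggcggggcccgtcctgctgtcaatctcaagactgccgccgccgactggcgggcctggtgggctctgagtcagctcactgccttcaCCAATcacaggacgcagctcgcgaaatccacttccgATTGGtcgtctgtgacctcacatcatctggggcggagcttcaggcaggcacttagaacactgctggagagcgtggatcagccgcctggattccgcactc
Insig1, chr5:28071162-28071461, plus strand: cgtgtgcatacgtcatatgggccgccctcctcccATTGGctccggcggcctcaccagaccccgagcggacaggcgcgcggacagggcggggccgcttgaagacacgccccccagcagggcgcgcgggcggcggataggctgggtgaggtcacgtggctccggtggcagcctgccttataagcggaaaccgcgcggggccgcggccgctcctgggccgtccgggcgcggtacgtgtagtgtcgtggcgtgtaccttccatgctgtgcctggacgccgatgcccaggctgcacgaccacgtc
NF-Y and Sp1 are known partners of the SREBP factors at sterol-regulated promoters. CCAAT was searched on both strands and stood in at least 1 window of 11 of the 11 sterol arm genes with a window, of 6 of 10 fatty acid genes and of 4 of 5 regulators. Of all 32851 windows in the table, 37.4% held it. Counted by window, because some genes have several, it stood in 11 of 14 sterol windows, 6 of 11 fatty acid windows and 5 of 10 regulator windows. The Sp1 core GGGCGG stood in windows of 10 of 11 sterol genes, 5 of 10 fatty acid genes and 5 of 5 regulators. By window it stood in 11 of 14, 6 of 11 and 8 of 10, and in 35.7% of all windows. The E-box CACGTG stood in windows of 6 members (Dhcr7, Elovl5, Hsd17b7, Insig1, Sc5d and Scap) and in 7.15% of all. The full classical sterol regulatory element stood in no member's window and in 0.0913% of all, and its loose form TCACNCCAC stood in 1 member's, that of Hmgcs1, 137 bases before the start, and in 1.24% of all. These matches describe letters in a window and are no evidence that a factor bound there.

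No member passed the test between the tissues. With edgeR's quasi-likelihood test at an adjusted p of 0.05, 0 of 31 tested members were higher and 0 lower in skin, while 7.24% of all tested genes passed, 3.28% higher and 3.96% lower. At an unadjusted p under 0.05 there were 2 members, Insig1 and Scd1, both higher, against 18.6% of all genes. DESeq2 called the same pair (12.6% of all genes called) and limma-voom called 0 (8.22%). Limma-voom with sample weights (15.7%) or with a variance weight per group (5.21% called higher) called Insig1 alone. Without skin 1 Insig1 passed in edgeR (10.8% of genes called), and without skin 2 Dhcr7 passed, lower in skin (8.58%). Without skin 3 (11.3%) or skin 4 (8.05%) 0 members passed. The tissues' libraries did not overlap for 4 members, Insig1 and Scap (higher) and Dhcr7 and Acsl5 (lower), against 26.6% of all tested genes, 10.1% higher and 16.5% lower.

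**Figure D1:**
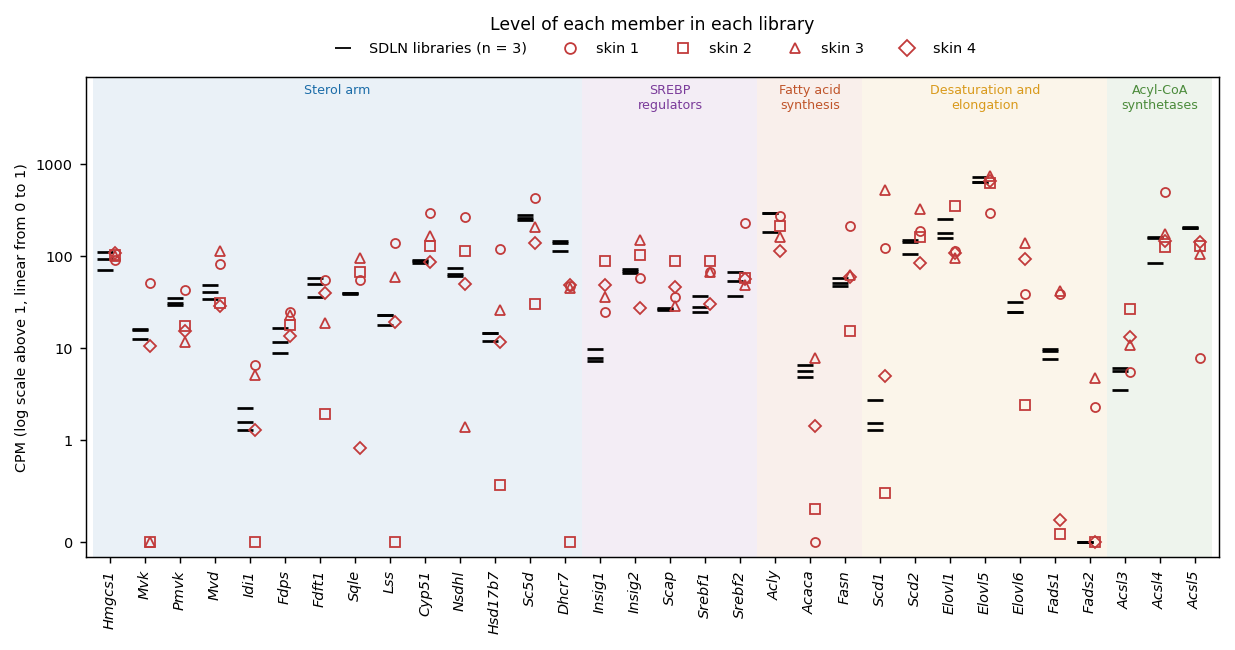
Level of each of the 32 members in each library, in CPM (log scale above 1, linear from 0 to 1); black bars are the 3 SDLN libraries and red symbols the 4 skin libraries. The SDLN bars lie close together for most genes, while skin symbols of one gene can lie from 0 to over 100 CPM, as for Lss.

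The skin libraries spread more widely than the SDLN libraries, for members as for other genes. The median coefficient of variation of the 31 tested members was 0.147 in SDLN and 0.721 in skin, beside 0.187 and 0.750 over all tested genes, and skin was the more variable tissue for 29 of the 31. No tested member was without a count in an SDLN library. In skin 5 members had no count in at least 1 library (Mvk, Idi1, Lss, Dhcr7 and Acaca), as did 29.5% of all tested genes. Of all 11376 tested genes, 3357 had no count in at least 1 skin library and 133 in at least 1 SDLN library. In bulk libraries made from low input, fewer cells that express a gene, less RNA per cell and transcripts lost in preparation cannot be told apart.

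Hmgcs1 makes HMG-CoA, the precursor of mevalonate (chromosome 13, 119690379 to 119708260). It was at 93.4, 111 and 71.4 CPM in SDLN 1 to 3 and at 90.8, 103, 100.02 and 107 CPM in skin 1 to 4. The libraries overlapped and those of skin lay close to each other (91.9 ± 19.8 CPM, SD, n = 3, against 100.3 ± 6.997 CPM, SD, n = 4). Its log2 fold change was 0.13 (95% interval -0.57 to 0.82, adjusted p = 0.903 in edgeR). No other member of the sterol arm varied so little in skin.

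The mevalonate kinase Mvk and the next enzymes of the chain showed how far skin libraries diverged. Mvk was at 12.6, 16.1 and 15.7 CPM in SDLN and at 50.7, 0, 0 and 10.5 CPM in skin, so that 1 skin library lay above every SDLN library and the others below. Pmvk, the second kinase, was at 29.5 to 35.3 CPM in SDLN and at 42.8, 17.4, 11.6 and 15.5 CPM in skin 1 to 4. Mvd, which decarboxylates the product, was at 34.7 to 48.7 CPM and at 81.9, 31.3, 114 and 28.9 CPM. For all 3, skin libraries lay on both sides of SDLN, and the log2 fold changes were 0.05, -0.55 and 0.63 (adjusted p 0.690 to 0.996 in edgeR).

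Idi1 and Fdps make the isoprenoid units and farnesyl diphosphate, from which sterols and protein prenyl groups are built. Idi1 was at 1.28 to 2.22 CPM in SDLN and at 6.57, 0, 5.16 and 1.27 CPM in skin. Fdps was at 8.95 to 16.6 CPM and at 24.9, 18.0, 22.9 and 13.7 CPM. Their levels are uncertain. In GENCODE M21 the Fdps transcript matches 5 other genes and that of Idi1 3 others at 95% identity or more over at least 200 bases, and reads with several alignments were on a summary line of their own.

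Fdft1 and Sqle commit farnesyl diphosphate to squalene and its epoxide, and Lss closes the ring to lanosterol. Sqle was almost constant in SDLN, at 39.4, 39.8 and 39.7 CPM, and was at 55.5, 68.3, 95.03 and 0.920 CPM in skin 1 to 4. Lss was at 17.8, 23.1 and 23.1 CPM in SDLN and at 138, 0, 59.4 and 19.1 CPM in skin. Fdft1 was at 36.1 to 57.5 CPM in SDLN and at 54.9, 1.93, 18.6 and 39.6 CPM in skin. The skin library that fell out was skin 4 for Sqle and skin 2 for Lss and Fdft1. The 95% intervals of the log2 fold change were correspondingly wide, from -2.03 to 2.97 for Sqle and from -2.39 to 5.07 for Lss. Fdft1 shares 774 exon bases with Ctsb on the other strand, and with the strand setting not given in the sources used here its reads may include some of Ctsb.

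Cyp51, Nsdhl and Hsd17b7 take lanosterol through demethylation and reduction. Cyp51 (chromosome 5, 4081145 to 4104746) was at 90.8, 88.7 and 85.3 CPM in SDLN and at 295, 131, 165 and 87.2 CPM in skin. Skin 1 to 3 lay above SDLN and skin 4 within it (log2 fold change 0.94, 95% interval -0.05 to 1.94, adjusted p = 0.302 in edgeR). Nsdhl was at 61.2 to 75.5 CPM in SDLN and at 266, 115, 1.40 and 49.8 CPM in skin. Hsd17b7 was at 11.9 to 14.7 CPM in SDLN and at 121, 0.562, 25.8 and 11.7 CPM in skin. For both, the highest skin library was skin 1.

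Sc5d and Dhcr7 act on the last steps to cholesterol, and Dhcr7 turns 7-dehydrocholesterol into cholesterol itself. Sc5d had the highest level per kb of exon in the sterol arm in SDLN, at 54.0 CPM per kb, while in skin its 41.8 came after Nsdhl (49.9) and Cyp51 (43.2). It was at 260.002, 248 and 281 CPM in SDLN and at 434, 30.3, 209 and 141 CPM in skin 1 to 4, above SDLN in skin 1 and below it elsewhere. Dhcr7 (chromosome 7, 143823145 to 143848410) was at 141, 148 and 115 CPM in SDLN and at 47.3, 0, 45.0 and 49.1 CPM in skin. It was the only sterol arm gene whose tissues did not overlap, and skin 1, 3 and 4 lay close to each other. Its log2 fold change was -1.93 (SE 1.32, 95% interval -4.99 to 1.13, adjusted p = 0.536 in edgeR). Without skin 2, which had no count of Dhcr7, the change was -1.54 and passed (adjusted p = 0.0364, and 0.0364 to 0.807 over all alternatives).

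Over the sterol arm as a whole, 10 of the 14 log2 fold changes were above 0 and 4 below, with a median of 0.55 beside 0.05 over all tested genes. This median rests on skin 1. It was 0.03 without that library, and -0.76 with limma-voom. Summed per kb of exon, the arm stood at 258, 270, 276 CPM per kb in SDLN and at 532, 188, 274 and 178 CPM per kb in skin 1 to 4. Skin 1 was thus above every SDLN library, skin 3 within their range and skin 2 and 4 below it.

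Gene by gene, the skin libraries also differed. In skin 1, 11 of 14 sterol arm genes lay above the SDLN range and 1 below, whereas over all tested genes 35.1% of skin 1 values lay above the SDLN range and 54.2% below. Skin 1 was the highest of the skin libraries for 10 of the 14, against 25.1% of all genes. Skin 2 was highest for 0 of them, lay below the SDLN range for 9 and had no count for 4, while over all genes 53.4% lay below the range and 17.7% had no count there. Skin 4 lay above the SDLN range for 0, within it for 5 and below it for 9, while over all genes 38.3% lay above and 47.1% below. The median log2 ratio to the SDLN mean, with 1 CPM added to both, was 0.96, -1.13, 0.48 and -0.34 in skin 1 to 4. Over all tested genes it was -0.47, -0.50, -0.08 and -0.19. What set skin 1 apart was not tested. It is the library with the conflicting tissue tag. Its Ctla4, Ikzf2 and, only just, Foxp3 lay above every SDLN library. Il2ra and Tnfrsf18 lay within the SDLN range, and Cd3e, Cd3g and Cd4 lay below it. Skin 1 had the fewest genes detected (9690), and its fibroblast and keratinocyte markers summed to 8.77 and 20.5 CPM.

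**Figure D2:**
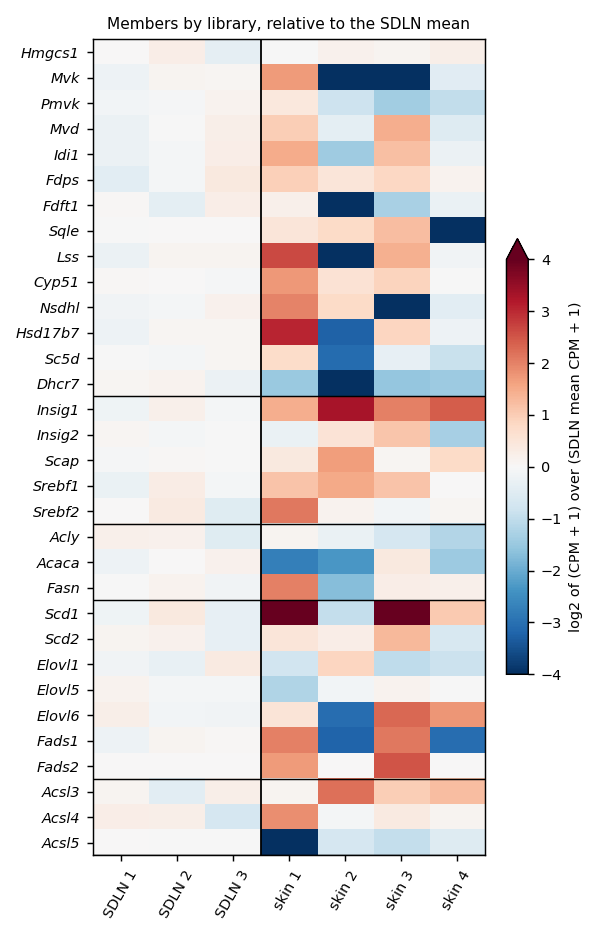
Each member (rows, grouped by role) in each library (columns), as the log2 ratio of its CPM plus 1 to the SDLN mean plus 1; red is above and blue below the SDLN mean, and colours are capped at -4 and 4. In the sterol block at the top the skin 1 column is mostly red and the skin 2 column mostly blue, while the 3 SDLN columns are pale throughout.

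Insig1 is the protein that retains Scap and SREBP when sterol is plentiful, and it is itself a classical SREBP target (chromosome 5, 28071363 to 28078662). It was at 7.33, 9.72 and 7.81 CPM in SDLN and at 24.5, 89.95, 36.5 and 48.5 CPM in skin 1 to 4. Each skin library lay above each SDLN library, and its mean was 6.01-fold higher in the fit (log2 fold change 2.59, SE 0.69, 95% interval 0.99 to 4.18). It narrowly missed the threshold (adjusted p = 0.0677 in edgeR). It passed in DESeq2 (adjusted p = 4.82e-04), in limma-voom with sample weights (0.00519) or a variance weight per group (0.0123), and in edgeR without skin 1 (0.0317). Over all alternatives the adjusted p ran from 4.82e-04 to 0.369 and the log2 fold change from 2.12 to 2.82. Skin 2 had the highest Insig1, although the median ratio of the sterol enzymes to SDLN was lowest there.

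Its paralog Insig2, which is less tied to SREBP, did not pass in any setting. Insig2 was at 72.9, 66.5 and 69.6 CPM in SDLN and at 57.8, 103, 152 and 27.3 CPM in skin, on both sides of SDLN (log2 fold change 0.28, 95% interval -1.02 to 1.59, adjusted p = 0.878 in edgeR). The ratio of the paralogs within a library does not depend on scaling. Per kb, Insig1 made up 9.92%, 13.8% and 11.0% of the pair in SDLN and 31.7%, 49.0%, 20.8% and 66.1% in skin, with no overlap. The log2 ratio differed by 2.41 between the tissues (exact permutation test over 35 splits, two-sided, p = 0.0571, adjusted 0.286 over 5 paralog pairs). The two-sided p doubles the smaller tail, so 0.0571 is the smallest value these splits allow. The test could therefore not reach a p under 0.05 for any pair.

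Scap, the sterol sensor, was at 26.3, 27.7 and 27.0 CPM in SDLN and at 35.9, 88.1, 28.6 and 46.9 CPM in skin, above SDLN in all 4 skin libraries but only just in skin 3 (log2 fold change 0.88, 95% interval -0.42 to 2.19, adjusted p = 0.496 in edgeR). Srebf1, the SREBP that favours fatty acid genes, was at 24.8, 37.0 and 28.3 CPM in SDLN and at 67.4, 88.4, 67.6 and 30.3 CPM in skin. Only skin 4 lay among the SDLN libraries (log2 fold change 1.08, 95% interval -0.11 to 2.26, adjusted p = 0.329). Srebf2, which favours sterol genes, was at 53.4, 67.7 and 37.0 CPM in SDLN and at 233, 57.6, 48.9 and 56.3 CPM in skin. Skin 1 was far above the other skin libraries, which lay among SDLN, and skin 1 was also the library with the highest sterol enzymes. Summed per kb, the 5 regulators stood at 46.7 to 54.6 CPM per kb in SDLN and at 98.6, 121, 97.0 and 56.5 in skin. All 5 log2 fold changes were above 0, with a median of 0.91 that ranged from 0.68 to 1.12 over the alternatives.

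**Figure D3:**
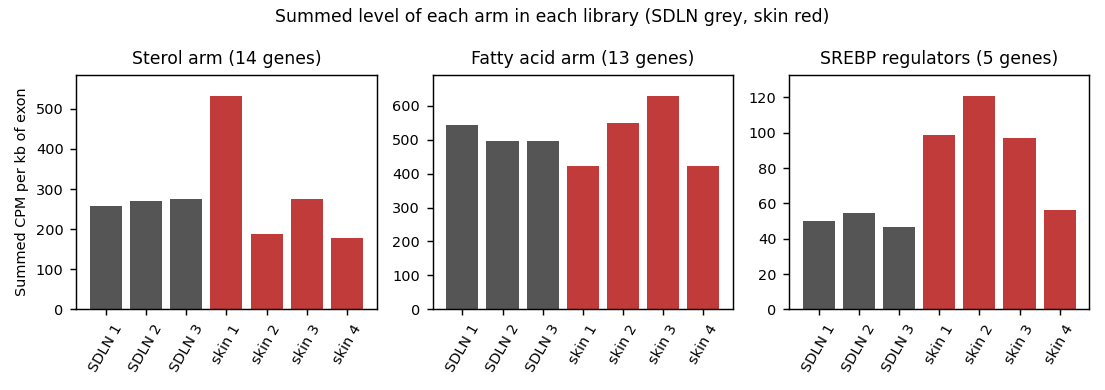
Summed CPM per kb of exon (bars, from 0) of the sterol arm, the fatty acid arm and the SREBP regulators in each library, SDLN in grey and skin in red. The sterol bar of skin 1 reaches 532, while the fatty acid bars lie between 422 and 629 in both tissues and the 4 regulator bars of skin, from 56.5 to 121, exceed those of SDLN.

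Acly, Acaca and Fasn form the trunk of fatty acid synthesis: Acly splits citrate into acetyl-CoA, Acaca carboxylates it and Fasn builds palmitate. Acly was at 296, 293 and 186 CPM in SDLN and at 277, 214, 161 and 115 CPM in skin, with overlap (log2 fold change -0.43, 95% interval -1.25 to 0.39, adjusted p = 0.627 in edgeR). Fasn was at 51.3, 58.0 and 47.3 CPM in SDLN and at 215, 15.4, 62.6 and 59.9 CPM in skin. Skin 1 was the highest and skin 2 the lowest of all 7 libraries. Acaca was low, at 4.84 to 6.51 CPM in SDLN and at 0, 0.321, 7.78 and 1.41 CPM in skin, and its level is uncertain because the processed pseudogene Gm5182 matches 6118 bases of its transcript at 99.2% identity.

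The desaturases Scd1 and Scd2 put the first double bond into saturated chains. Scd1 (chromosome 19, 44394455 to 44407879) had the largest log2 fold change of the 31 members and very uneven skin values. It was at 1.55, 2.74 and 1.302 CPM in SDLN and at 122, 0.481, 532 and 4.95 CPM in skin 1 to 4. Skin 1 and 3 were far above SDLN, skin 4 slightly above and skin 2 below it (log2 fold change 6.46, SE 2.19, 95% interval 1.40 to 11.5, adjusted p = 0.150 in edgeR). DESeq2 called it (adjusted p = 1.33e-04), and over all alternatives the adjusted p ran up to 0.597. Without skin 3 the log2 fold change was 4.50 (adjusted p = 0.245). With limma-voom it was 3.18, with a variance weight per group 3.24 and with sample weights 3.52.

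Markers of other skin cells moved with Scd1 in part. Scd1 is abundant in sebaceous glands, and the 7 sebocyte markers summed to 105 CPM in skin 3, against 14.97, 11.6 and 19.2 CPM in skin 1, 2 and 4 and 2.22 to 5.79 CPM in SDLN. The list was not high as a whole in skin 3: 3 of 7 were detected there, the melanocortin receptor Mc5r at 72.5 CPM, Krt79 at 30.6 CPM and Awat1 at 1.75 CPM. Mc5r and Awat1 had no count in the other 6 libraries. Scd3, Awat2, Dgat2l6 and Mogat2 had no count in skin 3, whereas Scd3 was at 16.8 CPM in skin 4 and Awat2 at 11.8 CPM in skin 1. Skin 3 also held the fibroblast and keratinocyte markers given above. In skin 1, with 122 CPM of Scd1, 2 of 7 sebocyte markers were detected. The 6 adipocyte markers had no count in any skin library. The part of such cells in the Scd1 values was not tested.

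**Figure D4:**
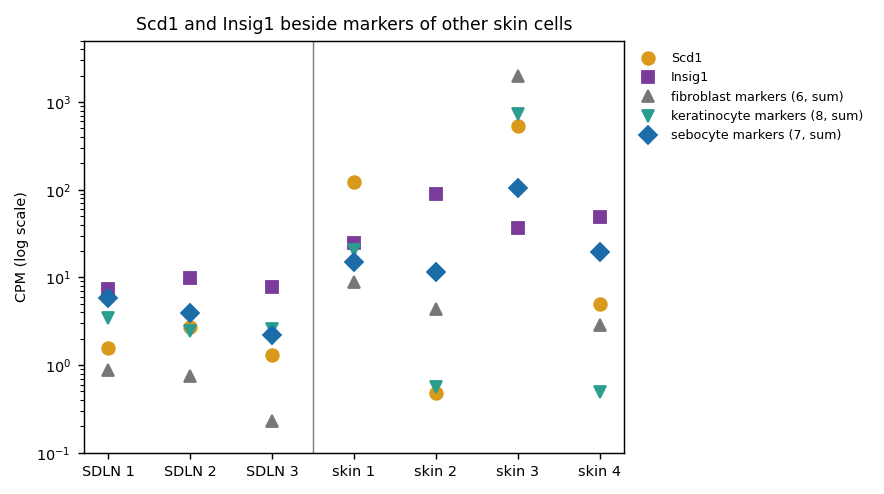
Scd1, Insig1 and the summed markers of fibroblasts, keratinocytes and sebocytes in each library, in CPM on a log axis. In skin 3 Scd1 (532 CPM) and all 3 marker sums are at their highest. Insig1 is highest in skin 2, where these 3 marker sums are 4.33, 0.562 and 11.6 CPM. Macrophage and dendritic cell markers are not drawn. They summed to 3131, 2696, 739 and 10176 CPM in skin 1 to 4 and to 340 to 543 CPM in SDLN, and Cd74 made up most of each sum. The part of such cells in the Insig1 values was not tested.

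Scd2 was the more abundant of the pair in all SDLN libraries. It was at 145, 149 and 105 CPM in SDLN and at 187, 160.4, 332 and 84.4 CPM in skin, with overlap (log2 fold change 0.52, 95% interval -0.52 to 1.56, adjusted p = 0.651 in edgeR). Per kb, Scd1 made up 1.19% to 2.03% of the pair in SDLN and 42.4%, 0.338%, 64.5% and 6.21% in skin. The log2 ratio of Scd1 to Scd2 differed by 3.12 on average, with overlapping libraries (exact permutation p = 0.343, adjusted 0.786). This difference was 1.87 without skin 3 and 4.85 without skin 2. A stretch of 623 bases of Scd2 matches a transcript of Scd1 at 95.5% identity, so some reads may not have been placed.

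Elongases lengthen the chains, and 2 of them dominated the arm. Elovl5, which acts on polyunsaturated chains, had the highest level per kb of all 32 members, at 242 CPM per kb in SDLN and 210.2 in skin. It was at 739.97, 645 and 639 CPM in SDLN and at 294, 631, 750.04 and 664 CPM in skin, where skin 1 alone was low (log2 fold change -0.21, 95% interval -0.96 to 0.54, adjusted p = 0.835 in edgeR). Elovl1, which acts on very long chains, came next at 101 and 87.3 CPM per kb. It was at 179, 158 and 252 CPM in SDLN and at 116, 357, 96.9 and 109 CPM in skin, where skin 2 alone was above the SDLN libraries. Elovl6, which extends palmitate, was at 24.5 to 31.96 CPM in SDLN and at 39.2, 2.41, 138 and 94.5 CPM in skin. The interval of Elovl1 ran from -1.39 to 0.96, narrower than that of Lss or Dhcr7.

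Fads1 and Fads2 desaturate long polyunsaturated chains. Fads1 was at 7.67 to 9.79 CPM in SDLN and at 39.0, 0.0802, 42.1 and 0.212 CPM in skin, on either side of SDLN. Fads2 had no count in the 3 SDLN libraries, where 3 counts would stand for 0.202 to 0.230 CPM, and was at 2.28 and 4.72 CPM in skin 1 and 3 and at 0 in skin 2 and 4. Scd1, Fads1 and Fads2 were all high in skin 1 and 3 and low in skin 2 and 4.

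The acyl-CoA synthetases activate fatty acids for use. Acsl5 (chromosome 19, 55251938 to 55297720) varied little in SDLN, at 207, 205 and 205 CPM, and was at 7.85, 129, 105 and 145 CPM in skin. Each skin library lay below each SDLN library, most of all skin 1 (log2 fold change -1.09, SE 0.76, 95% interval -2.84 to 0.66, adjusted p = 0.542 in edgeR). Acsl4, which prefers arachidonate, was at 164, 159 and 84.4 CPM in SDLN and at 502, 128, 175 and 148 CPM in skin. Here skin 1 was the highest library (log2 fold change 0.81, 95% interval -0.45 to 2.07, adjusted p = 0.530). Acsl3 was at 3.49 to 6.13 CPM in SDLN and at 5.48, 26.8, 10.9 and 13.2 CPM in skin. The ratio of Acsl4 to Acsl3 did not differ detectably between tissues (log2 difference -0.66, exact permutation p = 0.629, adjusted 0.786).

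**Figure D5:**
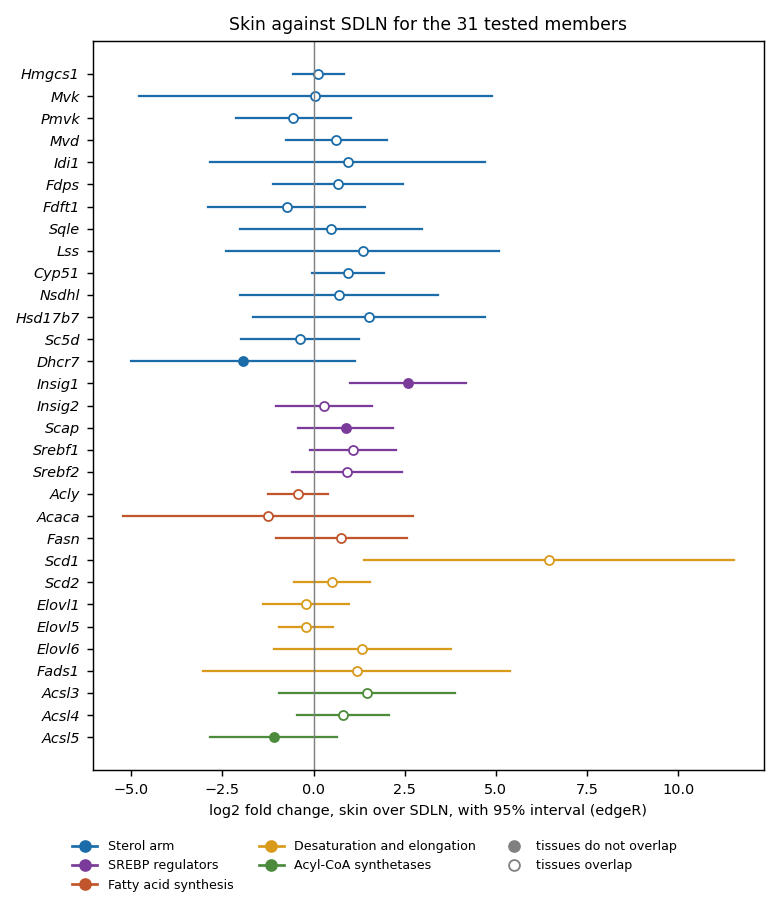
Log2 fold change of skin over SDLN for the 31 tested members with its 95% interval (edgeR), coloured by role; filled points mark the 4 members whose tissues do not overlap. The intervals of Insig1 and Scd1 alone lie wholly above 0, and those of Mvk and Lss span several units in both directions.

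Set beside the sterol arm, the fatty acid arm had 7 of 12 tested log2 fold changes above 0 and 5 below, with a median of 0.64 that was 0.08 without skin 1 and -0.07 with limma-voom. Summed per kb its mean was 513 ± 26.9 CPM per kb over SDLN (SD, n = 3) and 506 ± 102 over skin (SD, n = 4), and the sterol arm at 268 ± 9.05 and 293 ± 165. The ratio of the sterol to the fatty acid sum was 0.474, 0.542 and 0.555 in SDLN and 1.26, 0.342, 0.436 and 0.421 in skin. Skin 1 alone had more sterol than fatty acid transcript by this measure, and the other skin libraries had less than any SDLN library. Elovl5 made up 46.2% to 48.9% of the fatty acid sum in SDLN. Without it the ratio was 0.929 to 1.03 in SDLN and 1.68, 0.582, 0.764 and 0.966 in skin, so skin 4 then lay within the SDLN range. The arms also differed in which skin library led: skin 1 was highest for 10 of 14 sterol genes and 3 of 12 fatty acid genes, and skin 3 for 2 and 6. No test was made of these counts.

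In a wider list of 21 sterol genes, 20 were tested and 0 passed in either direction in edgeR, against 7.24% of all tested genes. At an unadjusted p under 0.05 in edgeR there were 4 of the 20, near the share of 18.6% over all genes. Among them was Ebp, which is described although the choice was made after its values were seen. Ebp, the sterol isomerase, was at 131 to 221 CPM in SDLN and at 80.3, 64.8, 55.4 and 119.8 CPM in skin (log2 fold change -1.08, adjusted p = 0.151 in edgeR). Each skin library lay below each SDLN library, as for 16.5% of all tested genes. The tissues did not overlap, in either direction, for 5 genes of this list. DESeq2 called 3 genes of this list, all higher (12.6% of all genes called in either direction). Limma-voom with sample weights (15.7%) or with a variance weight per group (5.21% called higher) called 1.

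In a wider list of 28 fatty acid and neutral lipid genes, 16 were tested, 1 rose and 0 fell. Over all tested genes 3.28% rose and 3.96% fell, so this count is no result about the list. Dgat1, which makes triglyceride from acyl-CoA (chromosome 15, 76502015 to 76511953), was the gene that rose. It was at 59.7, 82.2 and 36.9 CPM in SDLN and at 403, 229, 250.1 and 374 CPM in skin. Every skin library was above every SDLN library, and the mean was 59.6 ± 22.6 CPM (SD, n = 3) against 314 ± 87.4 CPM (SD, n = 4), 5.27-fold higher in the fit (log2 fold change 2.40, SE 0.39, adjusted p = 0.0181 in edgeR). It did not pass without any 1 of SDLN 1, 2 or 3 (adjusted p 0.134, 0.0762 and 0.0968) or in a fit blocked on replicate number (0.124 on 6 libraries and 0.104 on 7), and passed without any 1 skin library. Hacd3, a dehydratase of chain elongation listed under its older symbol Ptplad1, was likewise named after its values were seen. It was at 239, 243 and 107 CPM in SDLN and at 786, 471, 643 and 350.1 CPM in skin, with no overlap (log2 fold change 1.52, adjusted p = 0.0694 in edgeR). Among the 16 tested genes of this list the tissues did not overlap for Slc25a1, Hacd3, Fabp5 and Dgat1. Of all tested genes, 26.6% did not overlap in either direction. Hacd4 did not overlap either but was not tested, with 2, 1 and 1 counts in SDLN and 0 in skin.

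Proliferation markers are given because lipid synthesis serves dividing cells. The 12 genes had a sum of 466 ± 38.6 CPM over SDLN (SD, n = 3) and of 515, 533, 1082 and 1032 CPM in skin 1 to 4. Of the 12, 1 rose (Top2a), beside 3.28% of all tested genes. Skin 1 and 2 had the lowest of these skin sums and lay close to each other. Their sterol arm sums were 532 and 188 CPM per kb. The part of dividing cells in the members' values was not tested.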

How the data were processed

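RNA of 7 libraries of sorted Tregs was sequenced after column purification and SMARTer Ultra Low Input cDNA synthesis, per the labels. The values the authors deposited are raw read counts per gene symbol, with no normalization; the submitters' processing notes name HTSeq 0.6.1, the aligner TopHat2 2.0.12 and build mm10. The annotation and the strand setting are not given here. 1 gene of the wider sterol list is not reported here. The 5 summary lines, mostly alignments to several places, held 76.3% to 80.8% of all entries of a library and were left out.

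Genes were kept by filterByExpr (minimum count 10) of edgeR 4.0.16 in R 4.3.3, scaled by TMM and tested with the robust quasi-likelihood test, two-sided, adjusted over all 11376 genes (Benjamini-Hochberg, 0.05). CPM use TMM-scaled library sizes. Levels per kb use GENCODE M21 basic exon unions, matched by symbol. Paralog ratios had 0.5 added to each count. Members, lists and tests were chosen with earlier results of these data known. The rule for named genes gave library values for members that passed or whose tissues did not overlap, and for the most abundant and most changed of each role; others were added after their values were seen. Same-numbered libraries were treated as unpaired (correlations of deviations 0.07, -0.00176 and -0.04, which cannot settle whether they were paired). Alternatives used other scalings, filters and tools (DESeq2 1.42.0, limma 3.58.1), a replicate block and each library left out. Intervals and floors of 3 counts cover counting or fitted error only.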

Additional observations from a re-analysis of the deposited data

Results flagged for a closer look

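In 4 of the 32 members 1 skin library lay far from the other 3, with a gap to the nearest other value, over the range of the 4, above Dixon's 95% critical value; chance gives about 1 in 20 genes, and 17.8% of all tested genes with a range met the same mark. Dhcr7 was at 0 CPM in skin 2 while the others lay at 45.0 to 49.1 CPM. Srebf2 reached 233 CPM in skin 1, with the others from 48.9 to 57.6 CPM. Elovl1 reached 357 CPM in skin 2, with the others from 96.9 to 116 CPM. Acsl4 reached 502 CPM in skin 1, with the others from 128 to 175 CPM.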

How the results depend on the processing

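Of the 31 tested members, 28 passed under no alternative, and 19 kept the sign of their fold change under every alternative run; at each change of sign the adjusted p was at least 0.148. With limma-voom the log2 fold changes below 0 in place of above it were -3.90 for Mvk, -0.51 for Idi1, -1.02 for Sqle, -1.35 for Lss, -0.75 for Nsdhl, -0.28 for Hsd17b7, -0.032 for Insig2 and -1.78 for Fads1. With sample weights they were -3.87 for Mvk, -1.69 for Sqle, -0.52 for Lss, -1.37 for Nsdhl, -0.00718 for Hsd17b7, -0.17 for Insig2 and -1.82 for Fads1, and with a variance weight per group -3.90 for Mvk, -0.52 for Idi1, -0.96 for Sqle, -1.34 for Lss, -0.76 for Nsdhl, -0.27 for Hsd17b7, -0.018 for Insig2 and -1.79 for Fads1. Mvk was at -0.10 with upper-quartile scaling and -0.071 without scaling. The median of the fatty acid arm was -0.073, -0.023 and -0.068 with these 3 forms of limma-voom, and that of the sterol arm, against a spread between skin libraries of 1.32, was -0.76, -0.66 and -0.76. The cause of these shifts was not tested.

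With a replicate block, on 6 and 7 libraries, Mvk was at -7.20 and -7.17, Nsdhl at -0.075 and -0.0805, Elovl6 at -0.0404 and -0.026, and the fatty acid median at 0.0798 and 0.10. With the block 32 and 44 genes of all were called higher and 10 and 12 lower, and 0 of the wider fatty acid list. Between same-numbered pairs the log2 ratio of Elovl1 to Elovl5 differed by 0.10 in place of -0.13. Correlations of deviations between SDLN and skin libraries ran from -0.0793 to 0.102, whether or not the numbers matched. Values so small cannot show whether a number marks a shared animal or batch. SDLN 3 was male and skin 3 female by Xist and Ddx3y, so that pair did not come from the same animal.

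Over all genes, 373 were called higher and 451 lower. These counts were 188 and 70 without the low-count filter, 99 lower with a mean of at least 5 CPM, 923 higher with DESeq2, 247 and 688 with limma-voom, 763 and 1024 with sample weights, 593 and 1002 with a variance weight per group, and 72 and 16 at an adjusted p under 0.01. With 1 library left out they ran from 33 to 582 higher and from 9 to 822 lower: 39, 33 and 61 higher and 9, 10 and 15 lower without SDLN 1, 2 and 3, 582 higher without skin 1 and 822 lower without skin 3. Called regulators numbered 1 with DESeq2, sample weights or a group variance, and called fatty acid arm genes 1 with DESeq2. In the wider sterol list 3, 1 and 1 were higher with DESeq2, sample weights and a group variance. In the wider fatty acid list 3 and 2 were higher with DESeq2 and sample weights, 1 was lower with a group variance and 0 were higher at an adjusted p under 0.01. With 1 library left out, called regulators ran from 0 to 1, lower sterol arm genes from 0 to 1, higher genes of both wider lists from 0 to 1 and lower ones of the fatty acid list from 0 to 1. The medians then ran from 0.081 to 0.83 for the fatty acid arm. Over the same settings the log2 fold change ran from -0.34 to 0.018 for Elovl5, from -0.18 to 1.09 for Fasn, from -0.0405 to 0.27 for Hmgcs1, from -0.11 to 1.92 for Hsd17b7, from -0.15 to 0.56 for Insig2, from -2.07 to 0.46 for Mvk and from -0.26 to 1.11 for Nsdhl, and the ratio of Elovl1 to Elovl5 from -0.50 to 0.21. A count of 3 stands for 0.202 to 0.274 CPM, which limits what can be read of Fads2 and of members at 0 in a skin library.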
